A study of Mus musculus with 6 samples.

Results

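The Hippo pathway transcription factors TEAD1 to TEAD4, their coactivators YAP and TAZ, and 4 of their target genes were examined in mouse embryonic stem cells treated with 4OHT or with vehicle. The 10 genes were taken by symbol from the deposited table: Tead1, Tead2, Tead3, Tead4, Yap1, Wwtr1 (the gene of TAZ), Lats2, Amotl2, Ctgf and Cyr61. All 10 were found among 23999 gene symbols, and all 10 were among the 14458 genes that passed the filter on low counts. The study, whose title concerns a Nanog enhancer, sequenced polyadenylated RNA of 6 samples of murine embryonic stem cells, pluripotent cells grown from the early embryo. Of these, 3 samples were treated with 4OHT (4-hydroxytamoxifen) and 3 with the vehicle ethanol, each for 6 days. By their labels all 6 samples carried the genotype "-5 floxed, exogenous mNanogV5", a floxed element named -5 together with an added, V5-tagged copy of mouse Nanog. 4OHT commonly serves to activate a Cre recombinase, but the labels give neither the recombinase nor the number of clones. No cells without the floxed element were among the samples, so effects of 4OHT itself and of loss of the element cannot be told apart. Nothing in the labels says that the 3 replicates of a group were separate cultures, and p-values measure only the spread between these samples.

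TEAD proteins bind DNA but activate transcription poorly without a partner. The kinases MST1 and MST2 (genes Stk4 and Stk3) activate LATS1 and LATS2, and these phosphorylate YAP and TAZ, which are then held in the cytoplasm or degraded. When the kinases are inactive, YAP and TAZ enter the nucleus, join TEAD proteins and switch on target genes such as Ctgf and Cyr61. Angiomotins bind YAP and hold it outside the nucleus, and Lats2 and Amotl2 are both inhibitors and targets of YAP, which makes them feedback genes. In the early mouse embryo TEAD4 with YAP directs the outer cells to the trophectoderm, while LATS activity in the inner cells keeps YAP out of the nucleus.

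Promoters of 4 genes that hold a TEAD-type motif are shown, those of 2 target genes and of the 2 coactivator genes, because TEAD proteins are known to bind this motif. The sequences are those of RefSeq on GRCm38.p6, a later assembly than the mm9 build of the deposited counts, and each is the 250 bases before the annotated start, 5′ to 3′ on the strand of the gene. Capitals mark GGAATG or its reverse complement CATTCC, the core of the motif. The Cyr61 window lies at chr3:145649986-145650235 on the minus strand, the Amotl2 window at chr9:102717554-102717803 on the plus strand, the Yap1 window at chr9:8004597-8004846 on the minus strand and the Wwtr1 window at chr3:57575911-57576160 on the minus strand.
Cyr61: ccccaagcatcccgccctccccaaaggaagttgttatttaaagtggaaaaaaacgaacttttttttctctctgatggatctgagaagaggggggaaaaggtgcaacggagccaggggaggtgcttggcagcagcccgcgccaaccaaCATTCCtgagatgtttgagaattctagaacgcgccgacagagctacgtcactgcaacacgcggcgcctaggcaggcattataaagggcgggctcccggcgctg
Amotl2: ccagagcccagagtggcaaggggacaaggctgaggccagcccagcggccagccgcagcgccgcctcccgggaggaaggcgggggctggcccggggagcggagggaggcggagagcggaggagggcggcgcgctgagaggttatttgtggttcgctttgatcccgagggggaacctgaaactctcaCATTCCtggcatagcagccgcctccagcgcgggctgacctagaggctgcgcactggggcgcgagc
Yap1: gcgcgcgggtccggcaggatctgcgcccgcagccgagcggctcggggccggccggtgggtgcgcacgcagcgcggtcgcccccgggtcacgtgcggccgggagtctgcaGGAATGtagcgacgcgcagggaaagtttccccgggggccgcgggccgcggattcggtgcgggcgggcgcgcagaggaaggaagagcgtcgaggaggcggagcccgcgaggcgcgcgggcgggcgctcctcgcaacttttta
Wwtr1: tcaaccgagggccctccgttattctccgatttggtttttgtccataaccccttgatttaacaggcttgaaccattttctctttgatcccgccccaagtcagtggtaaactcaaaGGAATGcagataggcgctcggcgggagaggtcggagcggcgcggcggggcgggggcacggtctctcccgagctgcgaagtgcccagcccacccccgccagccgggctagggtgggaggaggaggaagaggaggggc

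The motif began 103 bases before the start in Cyr61, 65 bases in Amotl2, 141 bases in Yap1 and 136 bases in the Wwtr1 window shown. RefSeq promoter windows were matched for 7 of the 10 genes, and not for Tead1, Tead4 and Ctgf. The 7 genes had 11 windows in all, since Tead3, Wwtr1 and Lats2 have more than 1 annotated start. Of the 7 genes, 5 held the motif on either strand in at least 1 window, the fifth being the low gene Tead3, whose windows are not printed, and Tead2 and Lats2 held none. Among all 27025 genes of the same table, 14.4% held it in a window of this length. The motif TGANTCA of AP-1 factors, which often act beside TEAD proteins, was searched in the same windows, and its reverse complement is the same word. It was in 0 of the 7 genes and in 7.82% of all genes. These matches describe letters in a window, and no binding was measured.

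The libraries held 55194644, 515388 and 31307423 counts in the 4OHT samples, against 52250671, 20030423 and 26370388 counts in the vehicle samples. Levels are given as CPM, read counts scaled to the same library total, with TMM factors that correct for differences in RNA make-up. A single read was worth 1.91 CPM in the shallow 4OHT replicate 2 and at most 0.0498 CPM in each other library, so the values of that replicate carry wide counting intervals. Nanog stood at 181 ± 11.5 CPM in 4OHT cells and 643 ± 14.5 CPM in vehicle cells (SD, n = 3 each). Reads from the V5-tagged copy may be included in these Nanog values. Of 8 stem cell markers, 1 rose and 1 fell (25% called by the test given below, against 22.4% of all tested genes). Their summed level ran from 5755 to 6113 CPM in 4OHT cells and from 5966 to 6144 CPM in vehicle cells. Abundant genes such as Pou5f1 weigh most in this sum, which does not show an unchanged cell state.

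After 4OHT 7 of the 10 genes rose, 1 fell, and Yap1 and Tead3 missed the threshold. The target genes Ctgf and Cyr61, the feedback genes Lats2 and Amotl2, the factor genes Tead1 and Tead2 and the TAZ gene Wwtr1 rose, while Tead4 fell. A gene counts as risen or fallen where the adjusted p of edgeR's quasi-likelihood test, taken over all tested genes, was under 0.05. That test called 22.4% of all tested genes, 11.9% as higher and 10.5% as lower in 4OHT cells. The median log2 fold change was 0.41 over the 10 genes and -0.0026 over all tested genes, whose middle 50% lay between -0.14 and 0.14. The levels of the groups did not overlap in 8 of the 10 genes, against 31.3% of all tested genes. The 10 genes were chosen with earlier results of the same samples known. These comparisons with all tested genes are therefore no independent sign of a shift in the pathway. The counts were again 7 higher and 1 lower without the shallow 4OHT replicate 2. In bulk RNA a change in the number of cells of a kind and a change in RNA per cell cannot be told apart.

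**Figure D1:**
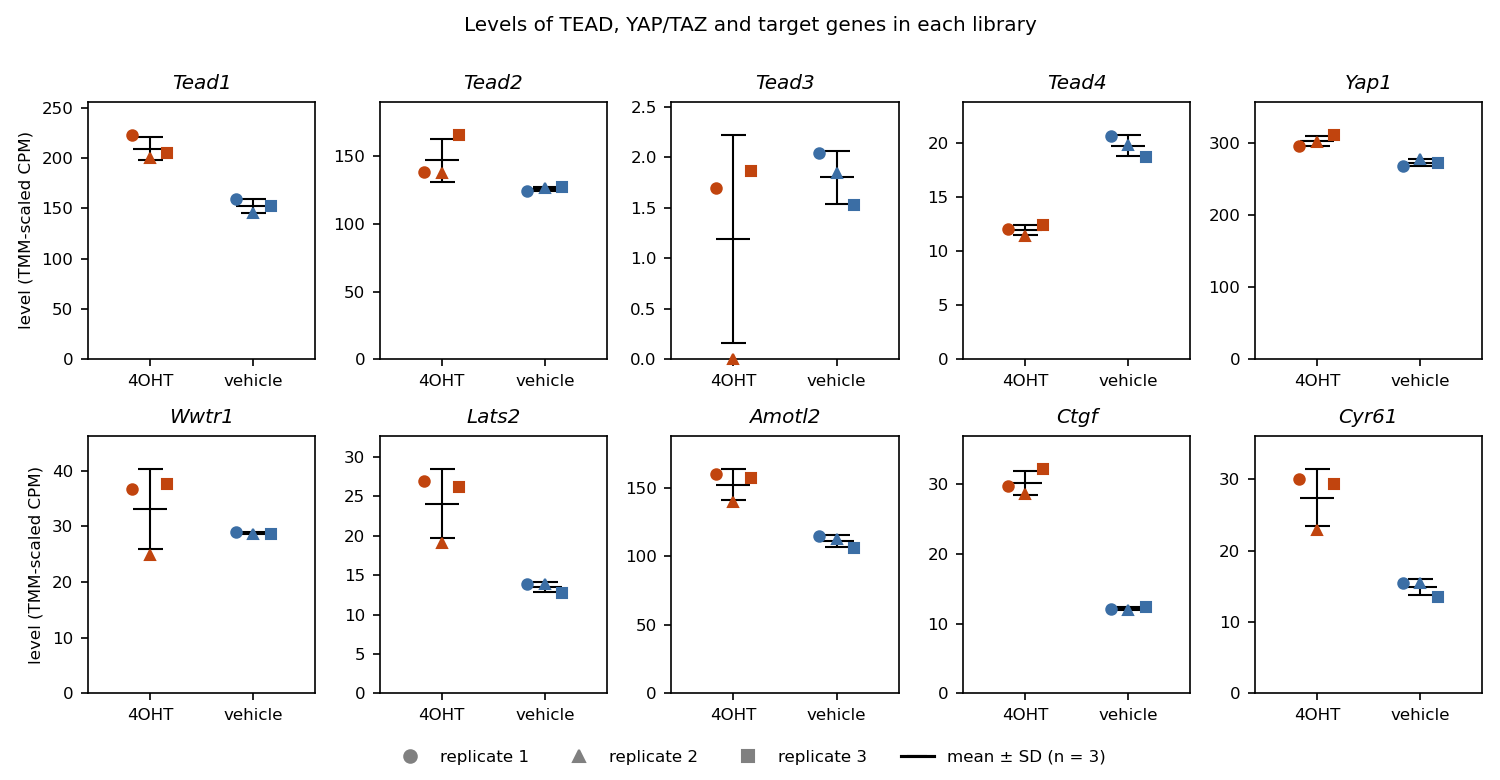
Levels of the 10 genes (TMM-scaled CPM, each panel with its own axis from 0) in the 3 4OHT and 3 vehicle libraries, one symbol per replicate number, with mean and SD. Ctgf, Cyr61, Lats2, Amotl2, Tead1, Tead2 and Yap1 were higher in every 4OHT library than in any vehicle library, Tead4 was lower in every 4OHT library, and the groups overlapped for Tead3 and Wwtr1.

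**Figure D2:**
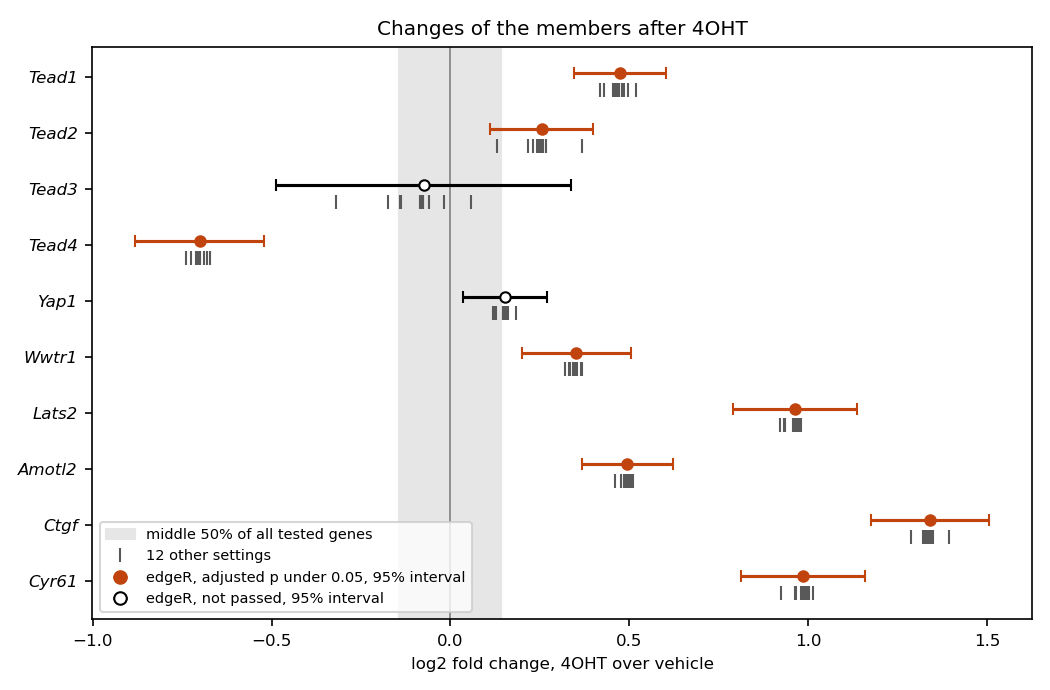
Log2 fold changes of 4OHT over vehicle with 95% intervals from edgeR (filled where the adjusted p was under 0.05), with 12 other ways of processing as ticks and the middle 50% of all tested genes as a grey band. Ctgf lay highest at 1.34 and Tead4 lowest at -0.70, and the ticks of both stayed on 1 side of 0.

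Ctgf and Cyr61, which encode secreted matricellular proteins of the CCN family and are the standard readouts of YAP and TAZ activity, had the highest fold changes of the 10, with Lats2 close behind. Ctgf had 29.7, 28.6 and 32.1 CPM in 4OHT replicates 1 to 3, against 12.1, 11.99 and 12.3 CPM in vehicle replicates 1 to 3. All 3 4OHT values were more than the highest vehicle value, and the vehicle values lay close together. The log2 fold change was 1.34 (95% interval 1.18 to 1.51, SE 0.08, edgeR adjusted p = 1.89e-10), a 2.53-fold rise. The value of 4OHT replicate 2 rests on 15 reads, with an exact Poisson 95% interval of 16.02 to 47.2 CPM that covers counting error only. Without that library edgeR gave a log2 fold change of 1.34 for Ctgf, and the range over the 12 other ways of processing was 1.29 to 1.39. GENCODE vM21 places an opposite-strand transcript, Gm15270, over 23.2% of the exon bases of Ctgf, and the use of strand in the counting is not given in the sources used here.

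Cyr61 had 30.0, 22.9 and 29.4 CPM in 4OHT replicates 1 to 3, against 15.5, 15.5 and 13.55 CPM in vehicle replicates 1 to 3. The groups did not overlap, and the lowest 4OHT value, from the shallow replicate 2, rests on 12 reads. The log2 fold change was 0.99 (95% interval 0.81 to 1.16, SE 0.08, edgeR adjusted p = 2.63e-08), a rise of 1.98-fold. Per base of transcript, the ratio of Ctgf to Cyr61 was 0.833, 1.05 and 0.919 in 4OHT libraries and 0.657, 0.65 and 0.766 in vehicle libraries. The 2 groups of ratios did not overlap, with a difference of 0.244 and an exact two-sided permutation p of 0.1, the smallest that 3 against 3 samples can give. The adjusted p was 0.133 over 8 such ratios and shares, and the gene pairs of the 3 ratios were picked after the values were seen.

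The other 4 CCN genes were low, and the family had 4 tested genes, of which 2 rose and 1 fell (75% called, against 22.4% of all tested genes). Nov (CCN3) fell, with 0.548, 1.91 and 0.457 CPM in 4OHT libraries, against 1.72, 1.44 and 1.64 CPM in vehicle libraries (log2 fold change -1.63, SE 0.25, edgeR adjusted p = 4.94e-05). Its groups overlapped through 4OHT replicate 2, where 1 read was worth 1.91 CPM, and the adjusted p was 0.213 with DESeq2 and 0.0751 with limma-voom and quantile normalization. Wisp1 (CCN4) did not pass, at a log2 fold change of -0.77 (95% interval -1.40 to -0.13, edgeR adjusted p = 0.0762; 0.0168 without 4OHT replicate 3 and 0.0364 without vehicle replicate 1). Wisp2 and Wisp3 were below the filter on low counts. The 2 rises were those of Ctgf and Cyr61 described above.

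Lats2 and Amotl2 stand for the feedback side of the pathway, a kinase that phosphorylates YAP and TAZ and an angiomotin that binds YAP. Lats2 had 27.0, 19.1 and 26.2 CPM in 4OHT replicates 1 to 3, against 13.9, 13.8 and 12.75 CPM in vehicle replicates 1 to 3. The lowest 4OHT value, based on 10 reads, was still above every vehicle value, although its Poisson interval of 9.15 to 35.1 CPM covers them. The log2 fold change was 0.96 (95% interval 0.79 to 1.14, SE 0.08, edgeR adjusted p = 3.96e-08), a 1.95-fold rise. The related kinase gene Lats1, a list member singled out in hindsight, had a log2 fold change of 0.06 and did not pass (edgeR adjusted p = 0.688). The ratio of Lats2 to Lats1 per base of transcript was 1.33, 2.31 and 1.33 in 4OHT libraries and 0.719, 0.722 and 0.706 in vehicle libraries (exact two-sided permutation p = 0.1, adjusted 0.133, n = 3 each). The 2.31 of 4OHT replicate 2 rests on 10 reads of Lats2 and 6 reads of Lats1. GENCODE vM21 has a second gene model on the same strand, Gm49361, that shares 42.4% of the exon bases of Lats2, so reads there can belong to either model and the Lats2 value is uncertain in that respect.

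Amotl2, which binds YAP at cell junctions, rose in every 4OHT library. Its levels were 160.3, 139 and 157 CPM in 4OHT replicates 1 to 3, against 115, 112 and 106 CPM in vehicle replicates 1 to 3. The groups did not overlap, and the log2 fold change was 0.49 (95% interval 0.37 to 0.62, SE 0.06, edgeR adjusted p = 4.04e-06), a rise of 1.41-fold. Its relative Amot, the founding angiomotin, rose as well, with 14.6, 9.54 and 13.6 CPM in 4OHT libraries, against 5.80, 5.52 and 5.06 CPM in vehicle libraries (log2 fold change 1.35, SE 0.11, edgeR adjusted p = 8.6e-09). The Amot value of 4OHT replicate 2 rests on 5 reads. The third angiomotin gene, Amotl1, averaged 26.6 ± 8.92 CPM in 4OHT cells and 29.5 ± 2.51 CPM in vehicle cells and did not pass (log2 fold change 0.07, 95% interval -0.14 to 0.27). Its 4OHT values were 34.9, 17.2 and 27.7 CPM, and the 17.2 CPM of 4OHT replicate 2 rests on 9 reads. The ratio of Amot to Amotl1 per base of transcript averaged 0.214 ± 0.03 in 4OHT libraries and 0.0812 ± 0.00285 in vehicle libraries (n = 3 each), with an exact two-sided permutation p of 0.1 and an adjusted p of 0.133.

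The 4 TEAD genes, which encode DNA-binding proteins with a shared TEA domain, did not move alike. Tead1 had 223, 200.4 and 205 CPM in 4OHT replicates 1 to 3, against 159.7, 146 and 153 CPM in vehicle replicates 1 to 3. All 4OHT values were above all vehicle values, at a log2 fold change of 0.47 (95% interval 0.35 to 0.60, SE 0.06, edgeR adjusted p = 7.86e-06). Tead2, the family member known for its early expression in the mouse embryo, had 138, 137 and 166 CPM in 4OHT libraries, against 124, 127 and 127 CPM in vehicle libraries. The 4OHT values were higher throughout, but 4OHT replicate 3 stood well above the other two. The log2 fold change was 0.25 (95% interval 0.11 to 0.40, SE 0.07, edgeR adjusted p = 0.0104), and without 4OHT replicate 3 it was 0.13 with an adjusted p of 0.132. DESeq2 gave Tead2 an adjusted p of 0.0851 and limma-voom with quantile normalization one of 0.0872.

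Tead4, the member that directs trophectoderm formation, was the 1 gene of the 10 that fell. It had 12.04, 11.45 and 12.4 CPM in 4OHT replicates 1 to 3, against 20.7, 19.9 and 18.7 CPM in vehicle replicates 1 to 3. All 4OHT values were below all vehicle values, at a log2 fold change of -0.70 (95% interval -0.88 to -0.52, SE 0.09, edgeR adjusted p = 4.18e-06), which is 0.615 of the vehicle level. The 6 reads of 4OHT replicate 2 allow 4.20 to 24.9 CPM by the exact Poisson interval, so the fall rests on 4OHT replicates 1 and 3. The test passed under all 12 other ways of processing, with log2 fold changes between -0.74 and -0.67. Tead4 lies on chromosome 6, as Nanog does, with 90 protein-coding genes between them in RefSeq on GRCm38, while the other 9 genes lie on chromosomes 3, 7, 9, 10, 14 and 17. A part of this position in the fall of Tead4 was not tested.

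Tead3 was the lowest of the family, with 37 to 108 reads in 5 libraries and none in the shallow 4OHT replicate 2. It had 1.70, 0 and 1.86 CPM in 4OHT libraries, against 2.04, 1.84 and 1.52 CPM in vehicle libraries. The 0 in 4OHT replicate 2 allows up to 7.04 CPM by the exact Poisson interval, which is above every measured value of the gene. Tead3 did not pass, at a log2 fold change of -0.07 (95% interval -0.49 to 0.34, edgeR adjusted p = 0.839).

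Levels of different genes were set against each other per kilobase of transcript, using for each gene the GENCODE vM21 transcript with the longest coding sequence. On that scale Tead2 was highest of the 4, with 43.3 ± 4.75 CPM per kilobase in 4OHT cells and 37.1 ± 0.418 in vehicle cells (SD, n = 3 each). Tead1 followed with 21.0 ± 1.19 in 4OHT cells and 15.3 ± 0.697 in vehicle cells, and Tead4 with 3.89 ± 0.156 in 4OHT cells and 6.42 ± 0.32 in vehicle cells. Tead3 was lowest, with 0.484 ± 0.421 in 4OHT cells and 0.736 ± 0.107 in vehicle cells. Neighbours in this order were further apart than their spread in each group. Taken per kilobase of coding sequence, Tead1 stood above Tead2, with 160.1 ± 9.04 against 110.1 ± 12.1 CPM per kilobase in 4OHT cells and 117 ± 5.31 against 94.4 ± 1.06 in vehicle cells, so the order of these 2 genes depends on the length used, and that of Tead4 and Tead3 below them does not.

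The share of Tead4 in the summed TEAD level per kilobase of transcript was 5.79%, 5.79% and 5.44% in 4OHT replicates 1 to 3, against 11.2%, 10.9% and 10.2% in vehicle replicates 1 to 3. The groups did not overlap, and the mean share was 5.1 percentage points lower in 4OHT cells (difference -5.10, exact two-sided permutation p = 0.1, the smallest possible, adjusted 0.133). The share of Tead1 was 33.1%, 31.3% and 27.8% in 4OHT libraries, against 26.6%, 24.7% and 25.8% in vehicle libraries. These groups did not overlap either (difference 4.98 percentage points, exact two-sided permutation p = 0.1, adjusted 0.133). The share of Tead2 averaged 63.0 ± 2.83% in 4OHT libraries and 62.3 ± 1.25% in vehicle libraries (n = 3 each, exact two-sided permutation p = 0.9), a difference within the spread of the replicates.

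**Figure D3:**
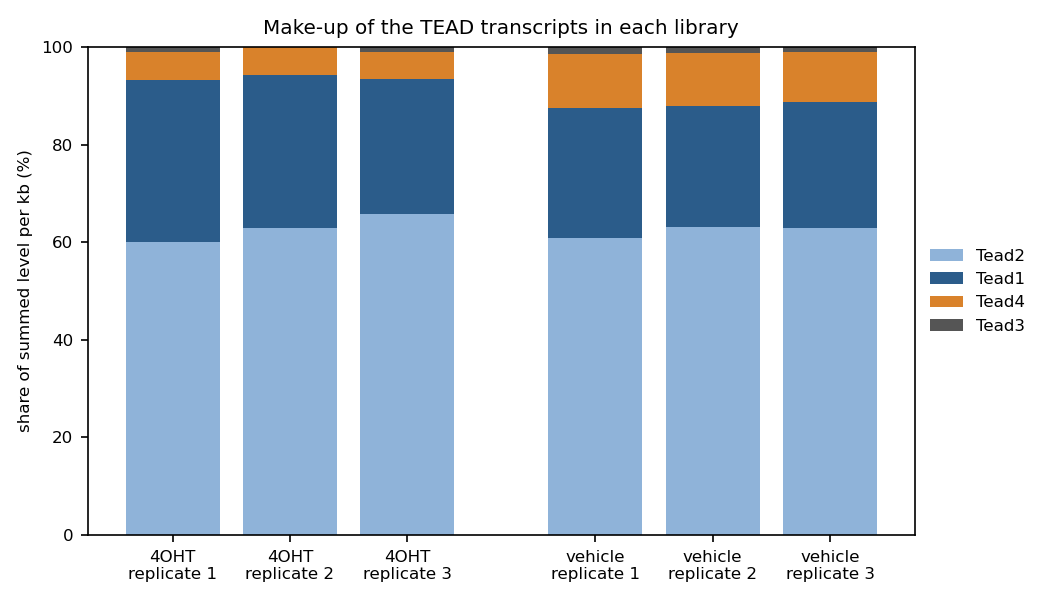
Share of each TEAD gene in the summed level per kilobase of transcript of Tead1 to Tead4 (percent), one stacked bar per library, with the 3 4OHT libraries left of the 3 vehicle libraries. The Tead4 segment is 5.44% to 5.79% in 4OHT libraries and 10.2% to 11.2% in vehicle libraries, and Tead2 is the widest segment in every library.

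Yap1 and Wwtr1 encode the coactivators YAP and TAZ, which bind TEAD proteins but not DNA. Yap1 had 296, 302 and 311 CPM in 4OHT replicates 1 to 3, against 268, 278 and 272 CPM in vehicle replicates 1 to 3. The groups did not overlap, but the difference was small and missed the threshold, at a log2 fold change of 0.15 (95% interval 0.03 to 0.27, SE 0.06, edgeR adjusted p = 0.0593). A fit blocked on replicate number gave an adjusted p of 0.00607 and a mean count of at least 50 one of 0.0433, whereas DESeq2 gave 0.209. Leaving out 4OHT replicate 1 brought it to 0.0149. Over the 12 other ways of processing the log2 fold change of Yap1 stayed between 0.12 and 0.18.

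Wwtr1 had 36.7, 24.8 and 37.6 CPM in 4OHT replicates 1 to 3, against 29.0, 28.6 and 28.6 CPM in vehicle replicates 1 to 3. The groups overlapped through 4OHT replicate 2, whose 13 reads allow 13.2 to 42.4 CPM. The log2 fold change was 0.35 (95% interval 0.20 to 0.50, SE 0.07, edgeR adjusted p = 0.00128) and 0.37 without that library (edgeR adjusted p = 0.00127), and DESeq2 gave an adjusted p of 0.231. Per kilobase of transcript, Wwtr1 made up 9.1 ± 1.79% of the summed level of Yap1 and Wwtr1 in 4OHT libraries and 8.85 ± 0.21% in vehicle libraries (n = 3 each, exact two-sided permutation p = 1). Yap1 RNA was the larger part of the pair in every library.

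Of the 8 tested genes in the list of TEAD factors, coactivators and competitors, 4 rose and 1 fell, so that 62.5% were called against 22.4% of all tested genes. These 8 hold the 6 TEAD, YAP and TAZ genes described above. DESeq2 called 2 rises and 1 fall among the 8, against 552 rises and 392 falls among 13344 genes in all. Vgll3, whose protein competes with YAP and TAZ for TEAD proteins, rose, with 6.37, 5.72 and 8.03 CPM in 4OHT libraries, against 2.46, 2.19 and 2.21 CPM in vehicle libraries. The groups did not overlap, at a log2 fold change of 1.61 (SE 0.14, edgeR adjusted p = 5.74e-08), an estimate above those of the 10 genes. The Vgll3 value of 4OHT replicate 2 rests on 3 reads only. Vgll4, which represses TEAD targets, averaged 5.2 ± 0.612 CPM in 4OHT cells and 3.86 ± 0.218 CPM in vehicle cells and did not pass (log2 fold change 0.36, edgeR adjusted p = 0.0605). For Vgll4 a fit blocked on replicate number gave 0.0406, and leaving out 4OHT replicate 1 gave 0.0229. Vgll1 and Vgll2 were below the filter on low counts.

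Upstream of YAP and TAZ, 6 of 25 tested kinases, adaptors and regulators rose, 2 fell and 17 did not pass, so that 32% were called against 22.4% of all tested genes. The median log2 fold change was 0.06. Besides Lats2, Amotl2 and Amot, the rises were those of Wwc2 (a KIBRA relative that promotes LATS activity), Taok3 (a kinase whose family acts on MST kinases) and Nf2 (Merlin, an activator of the pathway). Wwc2 averaged 93.6 ± 5.5 CPM in 4OHT cells and 65.5 ± 2.8 CPM in vehicle cells (log2 fold change 0.48, edgeR adjusted p = 9.21e-06). Taok3 averaged 13.2 ± 0.77 CPM in 4OHT cells and 9.9 ± 0.613 CPM in vehicle cells (log2 fold change 0.41, edgeR adjusted p = 0.004, and 0.325 with DESeq2). Nf2 averaged 267 ± 10.1 CPM in 4OHT cells and 231.5 ± 5.08 CPM in vehicle cells (log2 fold change 0.23, edgeR adjusted p = 0.00634; 0.0585 without vehicle replicate 2 and 0.0514 without vehicle replicate 3). Map4k4, a kinase acting in parallel to the MST kinases, and Ptpn14, a phosphatase that binds YAP, fell by 0.25 and 0.26 on the log2 scale (edgeR adjusted p = 0.00421 and 0.00346). The MST1 gene Stk4 averaged 131 ± 3.93 CPM in 4OHT cells and 137 ± 2.36 CPM in vehicle cells and did not pass (log2 fold change -0.08, 95% interval -0.20 to 0.04). Ajuba, Taok1 and Scrib, the other abundant members, did not pass either, with log2 fold changes of 0.03, -0.03 and 0.12. For Scrib the blocked fit gave an adjusted p of 0.0436 and leaving out 4OHT replicate 1 gave 0.0291. Fat4, a cadherin placed upstream of the pathway, was below the filter on low counts.

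YAP and TAZ target genes, a list of 22 genes known from mammalian cell lines that holds 4 of the 10 genes described above, went both ways. The test called 9 of 18 tested targets as risen and 3 as fallen. That makes 66.7% called, against 22.4% of all tested genes, with a median log2 fold change of 0.27. With Ctgf, Cyr61, Lats2 and Amotl2 left out, 5 of 14 rose, 3 fell and the median was 0.10. The list's direction is no independent sign of pathway activity, since these members were chosen with earlier results of the same samples known. DESeq2 called 5 rises and 3 falls in the list, against 552 rises and 392 falls among 13344 genes in all. The rises were those of Ctgf, Cyr61, Lats2, Amotl2 and, outside the 10 genes, Dock5.

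Among the other risen targets, Dock5, a guanine nucleotide exchange factor for RAC, had 187, 151 and 158 CPM in 4OHT libraries, against 116, 111 and 114 CPM in vehicle libraries (log2 fold change 0.59, edgeR adjusted p = 2.07e-06). Tgfb2, a TGF-beta ligand, was low, with 3.05, 1.91 and 3.59 CPM in 4OHT libraries, against 1.68, 1.29 and 1.37 CPM in vehicle libraries (log2 fold change 1.12, edgeR adjusted p = 7.86e-05, and 0.162 with DESeq2). The Tgfb2 value of 4OHT replicate 2 is 1 read. Igfbp3, Nt5e and F3, named here because they complete the count, rose by log2 fold changes of 0.60, 0.52 and 0.40 (edgeR adjusted p = 8.7e-05, 0.00102 and 0.0195). DESeq2 gave these 3 genes adjusted p of 0.0506, 0.249 and 0.609. For F3 the edgeR adjusted p was 0.0638 without 4OHT replicate 1, 0.0728 without vehicle replicate 1 and 0.096 without vehicle replicate 2. Against these, Myof, a membrane repair protein, fell to 74.9, 68.7 and 65.0 CPM in 4OHT libraries, against 132, 129 and 126 CPM in vehicle libraries (log2 fold change -0.88, SE 0.07, edgeR adjusted p = 5.58e-09). Fjx1, the relative of a fly gene that acts in the Fat and Dachsous branch, fell to 8.88, 15.3 and 11.9 CPM in 4OHT libraries, against 21.4, 21.3 and 17.6 CPM in vehicle libraries (log2 fold change -0.97, SE 0.12, edgeR adjusted p = 3.62e-06). The groups of both genes did not overlap, though the Fjx1 value of 4OHT replicate 2 rests on 8 reads. Arhgef17, Asap1, Gadd45a and Nuak2 did not pass, with log2 fold changes of 0.03, 0.09, 0.11 and -0.09. Ankrd1, a much used YAP target in other cells, had 0 to 5 reads per library and was below the filter, as were Ccdc80, Foxf2 and Rbms3.

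**Figure D4:**
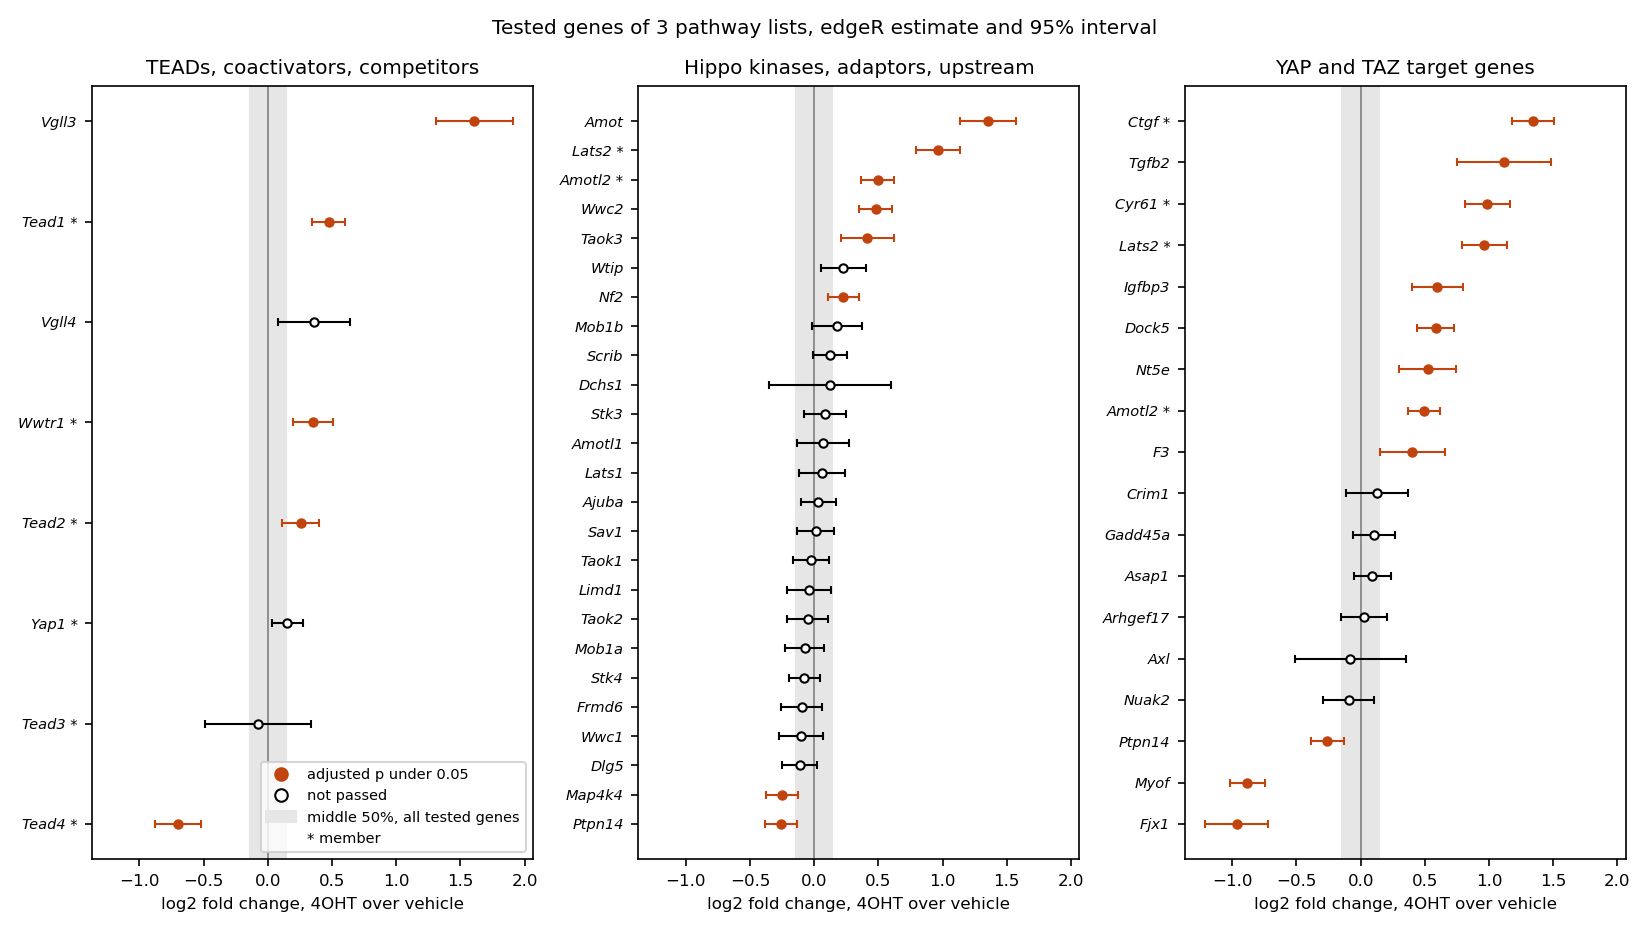
Log2 fold changes of 4OHT over vehicle with 95% intervals from edgeR for the tested genes of 3 lists (TEAD factors with coactivators and competitors, upstream regulators, and target genes), filled where the adjusted p was under 0.05, with an asterisk on the 10 genes. Among the targets Ctgf lies highest at 1.34 and Fjx1 lowest at -0.97, with 9 rises and 3 falls in that list.

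Of 5 tested genes in a list of trophectoderm genes drawn up around TEAD4, 2 rose and 2 fell (80% called, against 22.4% of all tested genes). DESeq2 called no rise and 1 fall, against 552 rises and 392 falls among 13344 genes in all. Not every gene of the list need be driven by TEAD4. The epithelial keratin genes Krt8 and Krt18 fell by 0.86 and 0.54 on the log2 scale (edgeR adjusted p = 6.82e-06 and 0.000805, and 0.228 for Krt18 with DESeq2). Tfap2c, a transcription factor gene also active in stem cells, averaged 85.7 ± 2.46 CPM in 4OHT cells and 73.8 ± 1.65 CPM in vehicle cells (log2 fold change 0.21, edgeR adjusted p = 0.0133; 0.111 without vehicle replicate 2, 0.0668 without vehicle replicate 3 and 0.214 with DESeq2). Gata3, a target of TEAD4 in the embryo, passed at under 1 CPM in both groups (log2 fold change 0.89, edgeR adjusted p = 0.0223), and not without 4OHT replicate 1, vehicle replicate 1 or vehicle replicate 3 (0.0706, 0.157 and 0.0627), nor with limma-voom and quantile normalization (0.139). Eomes did not pass (log2 fold change -0.13). Cdx2, the best known TEAD4 target, had 0 to 11 reads per library and was below the filter, as was Elf5.

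Markers of primitive endoderm, a lineage next to the pluripotent cells of the embryo, moved with the same treatment. All 8 of a list of such markers rose (100% called, against 22.4% of all tested genes). Their summed level was 45.8 to 64.0 CPM in 4OHT libraries and 6.84 to 8.07 CPM in vehicle libraries. Gata4, Sox17 and Sox7 had 0 reads in the shallow 4OHT replicate 2, and their groups overlapped. Foxa2 was at 0.149 to 0.228 CPM in vehicle libraries and passed the filter on low counts through 4OHT libraries. The part of these markers in the rises of Ctgf, Cyr61, Lats2, Tead1 and the other genes was not tested. For fibroblasts, cells with much Ctgf and Cyr61 that are used as feeder layers, 7 of 12 markers were below the filter, Postn had 0 reads in all 6 libraries, and Dcn, Lum and Col3a1 had 0 to 2 reads per library. Of the 5 tested fibroblast markers Fbln1 rose and Thy1 fell (40% called, against 22.4% of all tested genes). Col1a1, Col1a2 and Twist1 did not pass, with log2 fold changes of 0.10, 0.90 and 0.37. The summed level was 76.3 to 92.0 CPM in 4OHT libraries and 78.5 to 82.0 CPM in vehicle libraries. Fbln1 held most of that sum, with 61.1 to 79.0 CPM in 4OHT libraries and 58.1 to 61.0 CPM in vehicle libraries. The sum therefore says little of the other markers. Of 6 neural markers 1 rose and 2 fell (50% called, against 22.4% of all tested genes). Tubb3 and Ncam1 fell, Sox1 rose, and Pax6, Nes and Map2 did not pass. The sums of the neural markers were 93.5 to 98.8 CPM in 4OHT libraries and 151 to 158 CPM in vehicle libraries. Tubb3 held most of them, with 67.0 to 78.2 CPM in 4OHT libraries and 108 to 116 CPM in vehicle libraries. These sums therefore say little of the other neural markers. Of 8 trophoblast markers 2 rose, 2 fell and 2 were below the filter (66.7% of those tested called, against 22.4% of all tested genes). Their sums were 15.3 to 17.3 CPM in 4OHT libraries and 20.8 to 24.2 CPM in vehicle libraries.

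Ctgf had the smallest adjusted p of the 10, and the genes whose levels ran most like it were looked for among 8881 tested genes with a mean of at least 10 CPM. Likeness was the Euclidean distance between log2(CPM + 1) values centred on each gene's mean, over the 5 libraries with at least 5000000 counts. The nearest were Sox21, a transcription factor gene (distance 0.0719), Dcaf12l1 (0.0854) and Fzd7, a WNT receptor gene (0.0977). Their log2 fold changes were 1.5, 1.33 and 1.33, near the 1.34 of Ctgf. Such nearness mostly restates a like difference between the groups and is no sign of shared regulation. The mean of at least 10 CPM was taken over both groups, and Sox21 reached it only through the 4OHT libraries. Sox21 averaged 17.4 ± 3.19 CPM in 4OHT cells and 5.55 ± 0.0716 CPM in vehicle cells, and Fzd7 averaged 385 ± 40.3 CPM in 4OHT cells and 149 ± 5.76 CPM in vehicle cells (SD, n = 3 each).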

How the data were processed

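NEBNext Ultra libraries of polyadenylated RNA were sequenced from 6 samples, per the labels' protocols. The authors deposited whole-number read counts per gene symbol, taken as raw because library totals differ. STAR, DESeq and the mm9 build appear in the submitters' processing notes, with no version. How reads were counted, with which annotation and whether by strand, is not given in the sources used here. Groups came from the treatment label. The members and gene lists were chosen with earlier results of these data known.

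edgeR 4.0.16 (R 4.3.3) served for the count tests (filterByExpr with a minimum count of 10, TMM factors, quasi-likelihood fit with a treatment term, prior count 0.125, Benjamini-Hochberg adjustment over all 14458 tested genes, threshold 0.05). The fit was tested on simulated data. Alternatives used DESeq2 1.42.0, limma 3.58.1 (voom), RLE size factors, other filters, a replicate block and each library left out. Genes named from a list were up to 8 that passed with the smallest adjusted p and up to 4 abundant ones that did not pass; others are said to be picked later.

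Same-numbered samples deviated together from their group means over 3675 genes with log2(CPM + 1) above 6, with correlations of 0.57, 0.15 and 0.38 for replicates 1, 2 and 3, although 4OHT replicate 3 correlated more with vehicle replicate 2 (0.44) than with its own number. The same-number values exceed 0.1, so the numbers were taken as possible pairs from the data, with no label that says so. Deviations from a mean of 3 samples are tied to each other, so these correlations cannot show pairing. Blocked values are given where they change a call. No 2 libraries agreed within sampling noise (lowest chi-square per degree of freedom 1.18). Copies were searched with blastn 2.17.0 in GENCODE vM21 transcripts (95% identity over 50% of the transcript): none of the 10 genes but Lats2, with Gm49361, had one. Promoters came from RefSeq.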

Additional observations from a re-analysis of the deposited data

How the results depend on the processing

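The 10 genes gave 120 values over 12 other ways of processing, of which 112 kept direction and side of the threshold, 4 lost the threshold (3 for Tead2, 1 for Wwtr1), 3 gained it (Yap1) and 1 turned sign (Tead3 without vehicle replicate 1). Leaving out 1 library at a time gave 7 to 9 called members, 6 to 8 of them higher, 24 to 29 called genes over the pathway lists (27 in the fit reported) and 2368 to 3950 genes in all. DESeq2 called 944 of 13344 genes in all, 16 over the pathway lists, and 6 members, and limma-voom with quantile normalization 2088 in all. The replicate block called 4073 genes and 9 members; beyond Yap1, Scrib and Vgll4 it changed no call of a named gene. No scaling moved the median of all tested genes by over 0.1.

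For genes that did not pass, leaving out libraries turned the sign, with log2 fold changes of -0.175 to 0.057 for Tead3, -0.0323 to 0.109 for Ajuba, -0.124 to 0.20 for Amotl1, -0.0808 to 0.124 for Arhgef17 and -0.124 to 0.057 for Taok1; Ajuba was at -0.0334 with quantile normalization. With coding length the difference in share, 4OHT minus vehicle, was -2.20 percentage points for Tead2 and -3.44 for Tead4. Leaving out a library gave -0.75 to 2.08 for Tead2 and -0.32 to 1.29 for Wwtr1. The cause was not tested. The 515388 counts of 4OHT replicate 2 limit what can be said of levels under 5.72 CPM, the worth of 3 reads, in that library.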
